A study of Mus musculus with 6 samples.

Results

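The genes described here are 8 cyclins of the cell division cycle together with Cdk1, the kinase that cyclins A and B bind, and Cdc25c, a phosphatase that activates it. They were taken by gene symbol (Ccnd1, Ccnd2, Ccnd3, Ccne1, Ccne2, Ccna2, Ccnb1, Ccnb2, Cdk1 and Cdc25c), and all 10 were found among the 23038 genes of the deposited tables. mRNA was sequenced from mouse primary oligodendrocyte precursor cells (mOPCs), the dividing glial cells from which oligodendrocytes (OLs) arise, 72 h after transfection with a control siRNA (siNC, 3 libraries) or with siRNA against Qk (siQk, 3 libraries), the gene of the Qki RNA-binding proteins. Per the study's methods, the cells were purified by immunopanning from mouse embryos of E14.5. The labels describe biological replicates and 3 different siRNAs for Qk. Neither the labels nor the methods say which siRNA each siQk library received, so the spread among siQk libraries holds differences between cultures and may also hold differences between siRNAs. Strain and genotype are not given in the sources used here, and no transgene is named.

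Progress through the cell cycle is driven by cyclin-dependent kinases, which act only when bound to a cyclin. D cyclins, made in answer to growth factors, bind Cdk4 and Cdk6 in G1 and start the inactivation of the Rb protein. E cyclins bind Cdk2 at the passage from G1 into S phase. Cyclin A2 rises in S phase and binds Cdk2 and then Cdk1, and cyclins B1 and B2 accumulate in G2 and bind Cdk1 to drive entry into mitosis. Cdk1 is held inactive by phosphates that the Wee1 and Myt1 kinases add and that Cdc25 phosphatases remove. In the OL lineage, precursors divide and leave the cell cycle as they differentiate. For this description Ccnd1, Ccnd2 and Ccnd3 are called the G1 members, Ccne1 and Ccne2 the G1/S members, and Ccna2, Ccnb1, Ccnb2, Cdk1 and Cdc25c the mitotic members.

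Mitotic genes are known to share short promoter elements, so the promoters of those members with an entry in the promoter table (RefSeq, GRCm38.p6) are shown first. In each, 150 bases before and 25 bases after the annotated start are printed 5′ to 3′ on the gene's strand. Capitals mark the letters searched for on both strands, which were the CCAAT box (CCAAT), the cell cycle genes homology region or CHR (TTTGAA or TTCGAA) and the E2F site (TTTGGCGC, TTTCGCGC, TTTGGCGG or TTTCCCGC). A CCAAT box on the opposite strand therefore reads ATTGG. The Cdk1 stretch is chr10:69352888-69353062 on the minus strand, the Ccnb2 stretch chr9:70421530-70421704 on the minus strand, the Ccnb1 stretch chr13:100786462-100786636 on the minus strand and the Ccne1 stretch chr7:38107466-38107640 on the minus strand. Ccnd3 has 2 annotated starts in the table, and the second, inside the annotated gene, is shown as chr17:47593317-47593491 on the plus strand.
Cdk1: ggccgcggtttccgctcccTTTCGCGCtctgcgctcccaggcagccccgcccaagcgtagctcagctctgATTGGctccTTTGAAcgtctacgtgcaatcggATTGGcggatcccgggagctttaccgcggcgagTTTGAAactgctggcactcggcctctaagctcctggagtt
Ccnb2: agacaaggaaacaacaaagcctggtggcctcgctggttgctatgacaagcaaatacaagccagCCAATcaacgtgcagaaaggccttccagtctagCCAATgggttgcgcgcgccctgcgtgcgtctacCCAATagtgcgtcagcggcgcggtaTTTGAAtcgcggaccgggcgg
Ccnb1: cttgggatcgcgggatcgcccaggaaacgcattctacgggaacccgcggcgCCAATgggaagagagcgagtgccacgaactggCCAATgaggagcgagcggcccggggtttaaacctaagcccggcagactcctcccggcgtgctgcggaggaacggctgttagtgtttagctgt
Ccne1: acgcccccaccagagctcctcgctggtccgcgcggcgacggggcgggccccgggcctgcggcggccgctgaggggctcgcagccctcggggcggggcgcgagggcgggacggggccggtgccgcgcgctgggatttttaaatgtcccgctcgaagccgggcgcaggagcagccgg
Ccnd3, second start: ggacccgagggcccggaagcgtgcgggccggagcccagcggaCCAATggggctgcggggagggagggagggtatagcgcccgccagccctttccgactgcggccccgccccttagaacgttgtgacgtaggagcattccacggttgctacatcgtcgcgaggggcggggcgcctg

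The promoter table has entries for the mitotic members Cdk1, Ccnb2 and Ccnb1, and each of these promoters held at least 2 CCAAT boxes. In the whole table window of 300 bases (250 before and 50 after the start), Ccnb2 had 3 CCAAT boxes, at −87, −54 and −21, and CHR letters at −167 and at 5 bases into the transcript. Cdk1 had 3 CCAAT boxes, at −208, −80 and −48, CHR letters at −71 and −15, and the E2F letters TTTCGCGC at −131. Ccnb1 had CCAAT boxes at −99 and −67 and no match to the CHR or E2F letters. In Ccne1 and at the first start of Ccnd3 no searched letters were found, and the second start of Ccnd3 had a CCAAT box at −108. Of all 32851 promoters in the table, 37.4% held a CCAAT box, 11.7% held at least 2 and 3.37% at least 3. CHR letters were in 19.2%, a CCAAT box and CHR letters together in 7.52%, and E2F letters in 2.37%. These are matches of letters, and no factor binding was measured in this series.

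**Figure D1:**
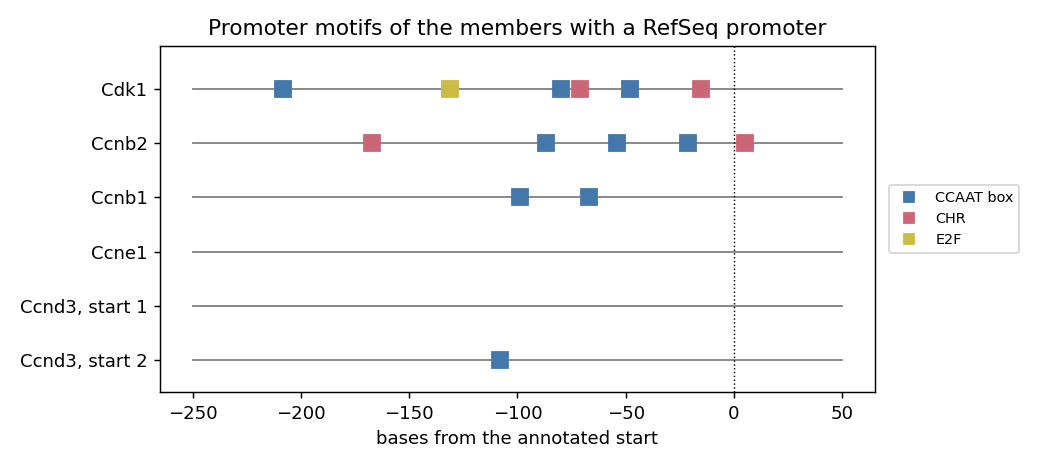
Position of CCAAT, CHR and E2F letters (squares) along 300 bases around each annotated start, with distance from the start in bases on the x axis and 1 line per promoter. Cdk1 and Ccnb2 hold CCAAT and CHR letters, Ccnb1 holds CCAAT boxes at −99 and −67, and Ccne1 holds no searched letters.

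Because Qki proteins are known to bind RNA at the element ACUAAY, where Y is C or U, the longest annotated 3′ untranslated region of each member (GENCODE M21, GRCm38) was also searched for its DNA letters ACTAAC and ACTAAT. Matches were found in 3 of the 10 members, and each is printed with 10 bases on either side and the match in capitals. They lie in Ccna2 at chr3:36565912-36565937 on the minus strand, in Ccnb1 at chr13:100779445-100779470 on the minus strand, and in Ccne2 on the plus strand at chr4:11203643-11203668, chr4:11204314-11204339 and chr4:11204448-11204473. The Ccne2 sites are named by their position in that region.
Ccna2: tcgtttagaaACTAACttgatttgtt
Ccnb1: agtggatccaACTAATgtatatatct
Ccne2, site at 555: taataaagtgACTAATttatctaaag
Ccne2, site at 1226: ttgtttataaACTAATttgtttcagt
Ccne2, site at 1360: aaaaaaattaACTAACtgcttaaaag
Of 10825 tested genes with such a region of at least 50 bases, 36.2% held at least 1 match. Of the 6 members that passed the test below, Ccna2 and Ccnb1 had a match, while Ccnd3, Ccnb2, Cdk1 and Cdc25c had none in this region.

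The libraries held 58166490 to 141045937 tags, the authors' estimated read counts summed over genes. Qk itself was at 209, 206 and 163 RPKM (reads per kilobase of exon, scaled to library size) in siNC. In siQk it was at 51.3, 76.6 and 36.2 RPKM, a log2 fold change of −1.98 (SE 0.28, edgeR quasi-likelihood test, adjusted p = 0.00311), with the smallest reduction in siQk replicate 2. Throughout, a call means that a gene passed the cutoffs of the study in that test (p below 0.01 together with a Benjamini-Hochberg adjusted p below 0.1), fitted over 12505 genes with an average log2 CPM (counts scaled to library size) above 0. Of these, 3879 genes were called (31% of those tested), 1730 of them higher in siQk (13.8%) and 2149 lower (17.2%), so a call by itself was common (2478 genes without siQk replicate 1). With libraries scaled by their size alone the split was 23.9% higher and 10.9% lower, and the median over all tested genes went from 0.010 to 0.16 on the log2 scale. OL lineage markers such as Olig2 and Sox10 were present in every library, with the 7 listed markers summing to 753 to 771 RPKM in siNC and 994 to 1190 RPKM in siQk. The siNC replicate 1 library, the shallowest, had 3.11% of its tags on Rn45s, a ribosomal RNA gene, and each of the others 0.169 to 0.389%.

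All 5 mitotic members rose after Qk knockdown, against 13.8% of all tested genes called higher, with log2 fold changes of 1.38 to 2.23 and a median of 1.54. That background was 8.06% without siQk replicate 1 and 8.83% without siQk replicate 2, and the same 5 members were called in both fits. None of the 3 G1 members and neither of the G1/S members was called higher in edgeR, and Ccnd3 was called lower. For the G1 and G1/S members the count of higher genes was also 0 at an unadjusted p under 0.05 in that fit and in DESeq2. With libraries scaled by their size alone 1 of them, Ccne1, had an unadjusted p under 0.05 (log2 fold change 0.39, edgeR adjusted p = 0.0518) and was not called. The difference between the mitotic and the other members was not tested. The median log2 fold change was 0.21 for the G1 members, 0.016 for the G1/S members and 0.010 for all tested genes. In RPKM, every siQk library lay above every siNC library for 6 members, the 5 mitotic members and Ccne1, and this was also the case for 41.9% of tested genes. The mRNA came from whole cultures, in which more cells in a phase and more RNA per cell cannot be told apart.

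**Figure D2:**
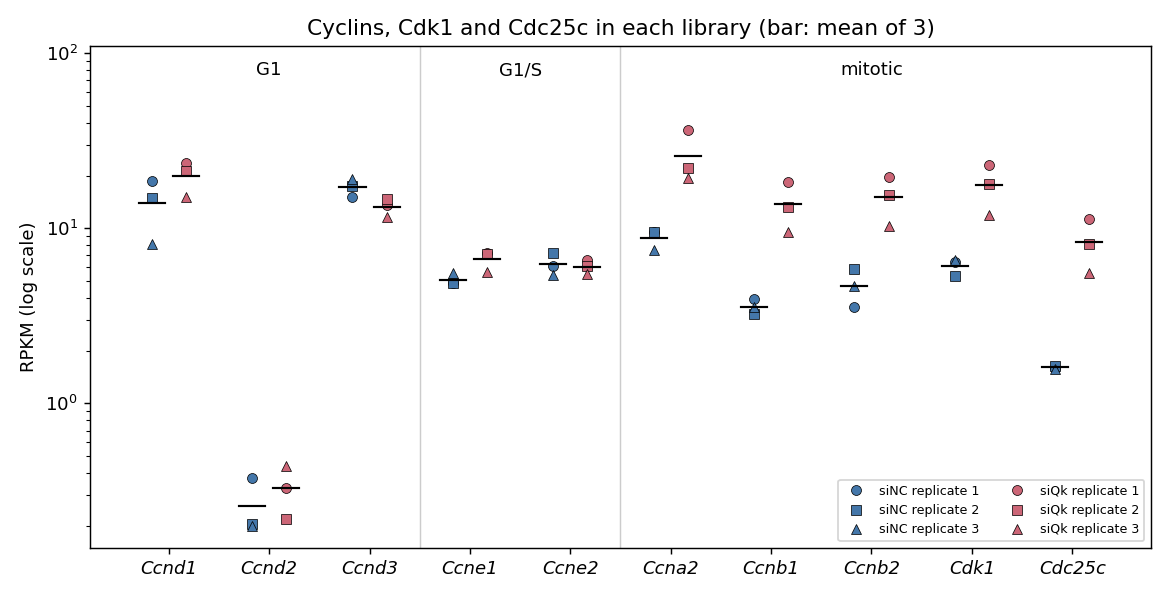
RPKM of each member (log axis) in the 3 siNC and 3 siQk libraries, with bars at the group mean. For Ccna2, Ccnb1, Ccnb2, Cdk1 and Cdc25c all siQk libraries lie above all siNC libraries, and within siQk replicate 1 is highest and replicate 3 lowest for each of them. Ccnd1, Ccne1 and Ccne2 show the same order within siQk.

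Cdc25c, which removes the inhibitory phosphates from Cdk1, showed the largest change among the members. It was at 1.60, 1.64 and 1.57 RPKM in the siNC libraries and at 11.4, 8.15 and 5.53 RPKM in the siQk libraries. The siNC libraries were nearly equal, at 1.61 ± 0.0372 RPKM (SD, n = 3), and the lowest siQk library was far above them. The log2 fold change was 2.23 (SE 0.26, edgeR adjusted p = 0.00179), a 4.68-fold difference with a 95% interval on the log2 scale of 1.62 to 2.84, and ranked 11 from the top of the 12505 genes. The values rest on 200 tags in the shallowest library and up to 3439 in the deepest. The gene spans chr18:34732993-34751533 (mm10) on the minus strand.

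Cyclins B1 and B2, the partners of Cdk1 at entry into mitosis, both rose. Ccnb1 (chr13:100778650-100786570, minus strand) was at 3.95, 3.22 and 3.54 RPKM in the siNC libraries and at 18.5, 13.2 and 9.56 RPKM in the siQk libraries. The groups were far apart, and the siQk libraries spread more widely than the siNC libraries. Its log2 fold change was 1.79 (SE 0.24, edgeR adjusted p = 0.00295), or 3.46-fold. Ccnb2 (chr9:70407692-70421547, minus strand) was at 3.54, 5.87 and 4.67 RPKM in the siNC libraries and at 19.6, 15.5 and 10.4 RPKM in the siQk libraries. Here the siNC libraries differed among themselves, with replicate 1 lowest, and the lowest siQk library still lay above the highest of them. The log2 fold change of Ccnb2 was 1.54 (SE 0.26, adjusted p = 0.00588), or 2.91-fold. Per length, the B cyclins summed to 8.27 ± 0.807 RPKM in siNC and 28.9 ± 9.08 RPKM in siQk (SD, n = 3). Ccnb1 made up 43.8% ± 8.67 of that sum in siNC and 47.6% ± 1.29 in siQk, a difference smaller than the spread among siNC libraries.

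Cyclin A2, which acts in S phase and G2, and the kinase Cdk1 were called higher as well. Ccna2 (chr3:36564865-36572150, minus strand) was at 9.50, 9.50 and 7.56 RPKM in the siNC libraries and at 36.4, 22.2 and 19.4 RPKM in the siQk libraries. Its mean level per length was the highest of the mitotic members in both groups, and siQk replicate 1 stood well above the other siQk libraries. The log2 fold change was 1.40 (SE 0.25, edgeR adjusted p = 0.00719), or 2.64-fold. Cdk1 (chr10:69335146-69352938, minus strand) was at 6.39, 5.32 and 6.56 RPKM in the siNC libraries and at 23.1, 17.9 and 11.9 RPKM in the siQk libraries, with no overlap between the groups. Its log2 fold change was 1.38 (SE 0.24, adjusted p = 0.00597), or 2.60-fold. The 95% intervals of the 5 mitotic members overlapped one another, with lower bounds of 0.80 for Ccna2 up to 1.62 for Cdc25c.

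**Figure D3:**
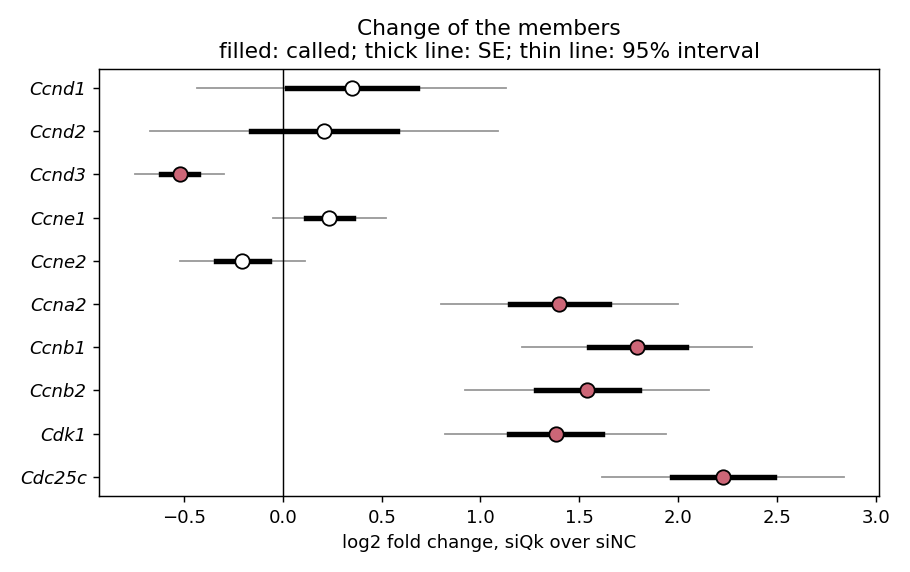
Log2 fold change of siQk over siNC for the 10 members, with the SE as a thick line and the 95% interval as a thin line. Filled points passed the cutoffs: the 5 mitotic members lie between 1.38 and 2.23 and Ccnd3 lies at −0.52.

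Within the siQk group the mitotic members kept the same order of libraries. In each of the 5, siQk replicate 1 was highest and siQk replicate 3 lowest, while Qk itself was also lowest in replicate 3. Ccnd1, Ccne1 and Ccne2 had the same order in RPKM and Ccnd2 and Ccnd3 did not, so the order was not particular to the mitotic members. After the mean of each group was removed from log2 CPM, the correlation over the 6 libraries ranged from 0.535 to 0.970 across the 10 pairs of mitotic members. Across the other 35 pairs of members it ranged from −0.89 (Ccnd2 and Ccnd3) to 0.927 (Ccne1 and Cdk1), so high values were not particular to the mitotic members. These correlations describe 6 libraries, which the genes share, and carry no test. Of 10039 genes with an average log2 CPM above 3, those with a level over the 6 libraries most like that of Cdk1 included Cdca8 (r = 0.998), Nup155 (r = 0.997), Ndc80 (r = 0.997) and Tpx2 (r = 0.996). Cdca8 is a subunit of the chromosomal passenger complex, Ndc80 part of the outer kinetochore, Tpx2 a spindle assembly factor and Nup155 a nuclear pore protein. These 4 were called higher, by 1.52 to 1.74 on the log2 scale for 3 of them and by 0.37 for Nup155. Their likeness to Cdk1 was taken over both groups without removing the group means. The choice itself therefore favoured genes higher in siQk, and these calls add no separate result.

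Of the 3 D cyclins, Ccnd3 was called and Ccnd1 and Ccnd2 were not. Ccnd3 (chr17:47505051-47599691, plus strand) was at 15.2, 17.4 and 19.2 RPKM in the siNC libraries and at 13.6, 14.7 and 11.6 RPKM in the siQk libraries. The groups did not overlap, with siQk below siNC, as for 16.4% of tested genes. It fell by 0.52 on the log2 scale (SE 0.096, edgeR adjusted p = 0.00757), or 1.44-fold. This call, which was made for 17.2% of tested genes, was lost when libraries were scaled by their size alone, where the log2 fold change was −0.37 (adjusted p = 0.0358, with p above 0.01).

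Ccnd1 (chr7:144929931-144939925, minus strand), the D cyclin most closely tied to mitogen signalling, was at 18.7, 14.98 and 8.10 RPKM in the siNC libraries and at 23.6, 21.1 and 15.1 RPKM in the siQk libraries. The lowest siQk library was level with the middle siNC library, and siNC replicate 3 lay well below the other siNC libraries. The log2 fold change was 0.35 (SE 0.33, edgeR adjusted p = 0.43), with a 95% interval of −0.43 to 1.13 that holds both a decrease and a more than 2-fold increase. Ccnd2 (chr6:127125162-127152193, minus strand) was barely expressed, at 0.373, 0.204 and 0.200 RPKM in the siNC libraries and at 0.328, 0.219 and 0.439 RPKM in the siQk libraries. The groups overlapped, with the highest value in siQk replicate 3, and the gene had only 111 to 341 tags per library. Its log2 fold change was 0.21 (SE 0.37, adjusted p = 0.677, 95% interval −0.67 to 1.09), and the interval holds both a decrease and an increase.

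Summed per length, the D cyclins reached 31.4 ± 3.51 RPKM in siNC libraries and 33.6 ± 5.59 in siQk libraries (SD, n = 3), a difference within the spread of replicates. Ccnd1 made up 43.4% ± 12.8 of this sum in siNC and 59.0% ± 3.73 in siQk, and Ccnd3 made up 55.8% ± 12.9 and 40.0% ± 3.42. The Ccnd1 share was above that of Ccnd3 in all 3 siQk libraries but only in siNC replicate 1. Ccnd2 held 0.815% ± 0.243 of the sum in siNC and 1.03% ± 0.524 in siQk.

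The genes whose level was most like that of Ccnd1 over the 6 libraries were Neto2 (r = 0.976), Oraov1 (r = 0.973), Myo5a (r = 0.964), Mbtd1 (r = 0.959) and Naa38 (r = 0.955), none of which was called. Oraov1, listed as LTO1 in the annotation, is the neighbour of Ccnd1 on the opposite strand, and 1100 of the 4709 exon bases of Ccnd1 overlap its exons. The kit used does not mark strand, so reads in this overlap cannot be assigned to either gene. Opposite-strand exon overlaps with protein-coding genes were also annotated for Ccna2 (Exosc9, 510 bases), Ccnd3 (Bysl, 361 bases), Ccne2 (Ints8, 609 bases) and Cdc25c (Gm3550, 623 bases). Exosc9, Bysl and Ints8 had log2 fold changes of −0.022, 0.0017 and 0.051, and none was called. Their levels ran from 12.9 to 16.6 RPKM for Exosc9, 11.7 to 14.1 RPKM for Bysl and 38.1 to 47.4 RPKM for Ints8. Ints8 was thus far above Ccne2, which was at 5.44 to 7.24 RPKM, and 609 of the 3495 exon bases of Ccne2 overlap exons of Ints8. How many of the Ccne2 tags came from Ints8 was not tested. Pseudogenes named after Ccnd3, Ccnb1 and Ccnb2 are annotated, 1 each, and how the authors' counting split reads between them and the parent genes was not tested.

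Of the E cyclins, which open S phase with Cdk2, neither was called. Ccne1 (chr7:38097984-38107534, minus strand) was at 4.87, 4.88 and 5.54 RPKM in the siNC libraries and at 7.20, 7.16 and 5.63 RPKM in the siQk libraries. The groups did not overlap in RPKM, but siQk replicate 3 was within 0.1 RPKM of the highest siNC library. The log2 fold change of 0.24 (SE 0.12, edgeR adjusted p = 0.163, 95% interval −0.051 to 0.52) did not pass. Ccne2 (chr4:11191351-11204779, plus strand) was at 6.11, 7.24 and 5.44 RPKM in the siNC libraries and at 6.55, 6.13 and 5.46 RPKM in the siQk libraries, with overlapping groups. Its log2 fold change was −0.20 (SE 0.13, adjusted p = 0.262, 95% interval −0.52 to 0.11). For the deposited counts, both intervals exclude a change as large as that of any mitotic member. The Ccne2 count may hold reads of Ints8, the more abundant gene that overlaps it on the opposite strand. Its interval may therefore not describe Ccne2 RNA alone.

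The order of the members by level differed between the groups. In siNC the mean RPKM ran from Ccnd3 (17.2) and Ccnd1 (13.9) through Ccna2 (8.85), Ccne2 (6.26), Cdk1 (6.09), Ccne1 (5.10), Ccnb2 (4.69) and Ccnb1 (3.57) to Cdc25c (1.61) and Ccnd2 (0.259). Neighbours in this order had overlapping ranges except below Ccna2, Ccnb1 and Cdc25c. In siQk the order was Ccna2 (26.0), Ccnd1 (19.9), Cdk1 (17.6), Ccnb2 (15.1), Ccnb1 (13.8), Ccnd3 (13.3), Cdc25c (8.35), Ccne1 (6.66), Ccne2 (6.04) and Ccnd2 (0.329). Here the ranges of neighbours were separated only between Ccnd3 and Cdc25c and between Ccne2 and Ccnd2.

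Taking the 8 cyclins as a pool, cyclins A and B together made up 28.6% ± 1.13 of the summed RPKM in siNC and 53.6% ± 4.91 in siQk (SD, n = 3). The D cyclins made up 52.4% ± 2.32 and 33.6% ± 3.30, and the E cyclins 19.0% ± 1.29 and 12.8% ± 1.72. No siNC library overlapped a siQk library in any of these shares. The pool itself summed to 59.9 ± 4.94 RPKM in siNC and 101 ± 24.1 RPKM in siQk, so a smaller share of D cyclins stood beside a nearly level sum of their RPKM.

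**Figure D4:**
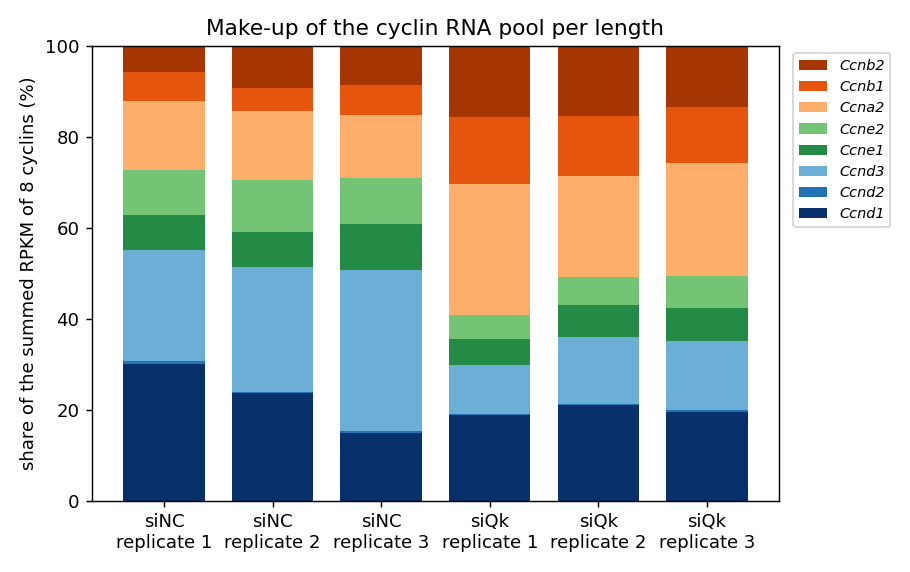
Share of each cyclin in the summed RPKM of the 8 cyclins (%), for each of the 6 libraries. Ccna2, Ccnb1 and Ccnb2 together take 27.3 to 29.4% of the pool in siNC and 50.7 to 59.2% in siQk.

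Ratios of 2 members within a library do not depend on how libraries are scaled, and 5 were compared. With 3 libraries against 3, an exact permutation test cannot give a p below 0.1. The log2 ratio of Ccnb1 to Ccnd1 was −1.88 ± 0.598 in siNC and −0.56 ± 0.182 in siQk (SD, n = 3), a difference of 1.32. The ratio of Ccna2 to Ccne2 moved from 0.50 ± 0.123 to 2.05 ± 0.365, a difference of 1.55. The ratio of Cdc25c to its substrate Cdk1 went from −1.92 ± 0.196 to −1.09 ± 0.0604, a difference of 0.83. The ratio of Ccne2 to Ccne1 went from 0.29 ± 0.301 to −0.14 ± 0.0892, a difference of −0.43. For these 4 ratios the groups did not overlap, and each reached p = 0.1 (exact two-sided permutation test, 0.125 after Benjamini-Hochberg adjustment over 5 ratios). The ratio of Ccnd2 to Ccnd1 differed by −0.23, less than the spread in either group (exact permutation p = 0.8, adjusted 0.8).

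The other genes of the pathway were read from 5 lists. Among 18 other cyclins, 15 were tested, of which 2 were called higher and 2 lower, with a median log2 fold change of 0.018. For comparison, 13.8% of all tested genes were called higher and 17.2% lower, so neither count stood above its background. When libraries were scaled by their size alone, 6 of these cyclins were called higher and 2 lower. The matching background was then 23.9% higher and 10.9% lower. The mitotic cyclin F gene, Ccnf, rose by 1.60 on the log2 scale (SE 0.20, edgeR adjusted p = 0.00223), from 1.61 ± 0.219 to 5.42 ± 1.31 RPKM. Ccnt1, which serves transcription elongation, rose by 0.26. Ccnc, a cyclin of the Mediator complex, fell by 1.04 (SE 0.095, adjusted p = 0.000903), from 16.2 ± 1.43 to 8.76 ± 0.811 RPKM, and Ccng1, a p53 target, fell by 0.75. Ccna1, Ccnb3 and Ccno were too low to be tested, and Ccna1, the germ-line cyclin A, reached at most 0.573 RPKM.

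Of the CDK partners, 6 of 7 were tested, and 3 were called higher and none lower, with a median log2 fold change of 0.38. The shares over all tested genes were 13.8% and 17.2%. The small CDK-binding subunits Cks2 and Cks1b rose by 1.69 (SE 0.25, edgeR adjusted p = 0.00366) and 1.03 (SE 0.23, adjusted p = 0.015) on the log2 scale, and Mnat1, a subunit of the CDK-activating kinase, rose by 0.36. Cdk4, the partner of the D cyclins, was abundant, at 419 ± 20.3 RPKM (SD, n = 3) in siNC and 504 ± 37.3 in siQk, and its log2 fold change of 0.11 was not called. Cdk2, the partner of the E cyclins, was at 3.79 ± 0.71 and 5.58 ± 0.507 RPKM (log2 fold change of 0.40, adjusted p = 0.101, not called). Cdk6 was nearly absent, with group means of 0.0068 and 0.0078 RPKM, and was not tested. Without siQk replicate 1 or without siQk replicate 2, 1 gene of this list was called.

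Among the genes that set the phosphorylation of Cdk1 and its substrates, Bora was not found in the tables and 10 were tested. Of these 10, 4 were called higher and none lower (median log2 fold change 0.39), against 13.8% and 17.2% of all tested genes. Plk1 and Aurka, kinases that promote Cdc25 activity, rose by 1.72 (SE 0.26, edgeR adjusted p = 0.00386) and 1.52 (SE 0.21, adjusted p = 0.00298) on the log2 scale. Cdc25b, a paralogue of Cdc25c, rose by 1.39 (SE 0.16, adjusted p = 0.00177), and Ensa, an inhibitor of the phosphatase that opposes Cdk1, rose by 0.27. The G1/S paralogue Cdc25a had a log2 fold change of 0.28 (adjusted p = 0.0339) and missed the cutoff on the unadjusted p. The inhibitory kinase genes Wee1 and Pkmyt1 had log2 fold changes of 0.61 (adjusted p = 0.0526) and −0.21 (adjusted p = 0.373), and neither was called.

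Of 24 genes for the destruction of cyclins, 7 were called higher and 2 lower, with a median log2 fold change of 0.24. Among all tested genes these calls were made for 13.8% and 17.2%. Ube2c, the ubiquitin-conjugating enzyme of the anaphase-promoting complex, rose by 1.90 (SE 0.27, edgeR adjusted p = 0.00326) on the log2 scale, from 14.8 ± 0.91 to 61.3 ± 23.1 RPKM. Cdc20, the activator of this complex in mitosis, rose by 1.77 (SE 0.22, adjusted p = 0.00212) and Fbxo5, an inhibitor of the complex, by 1.21 (SE 0.20, adjusted p = 0.00591). Subunits of the complex itself moved less and in both directions. Cdc23 rose by 0.47, while Anapc10 fell by 0.54 and Cdc27 fell by 0.31. The other genes called higher were Cdc16, Fbxo31 and Ube2d1. When libraries were scaled by their size alone, 12 genes of this list were called higher and 1 lower, against 23.9% and 10.9% of all tested genes.

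Among 14 genes for the transcription of cell cycle genes, 6 were called higher and 1 lower, with a median log2 fold change of 0.12. Calls over all tested genes were 13.8% higher and 17.2% lower. Foxm1, a factor that acts at CHR elements of G2 genes, rose by 1.33 (SE 0.24, edgeR adjusted p = 0.00737) on the log2 scale, and Mybl2, the B-Myb subunit that joins the MuvB complex, by 1.05 (SE 0.20, adjusted p = 0.008). Of the MuvB core, Lin9 rose by 0.76, Lin37 was also called higher, Lin52 fell by 0.31, and Lin54 and Rbbp4, at −0.30 and −0.22, were not called. Of the CCAAT-binding factor NF-Y, Nfyb rose by 0.36 and Nfyc by 0.34, and Nfya, at −0.071, was not called. When libraries were scaled by their size alone, 7 genes of this list were called higher and 0 lower in edgeR, against 23.9% and 10.9% of all tested genes. The list counts were the same at an unadjusted p under 0.05 in that fit. DESeq2 under its own scaling called 6 higher and 3 lower. Without siQk replicate 1, 4 genes of the list were called in all.

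**Figure D5:**
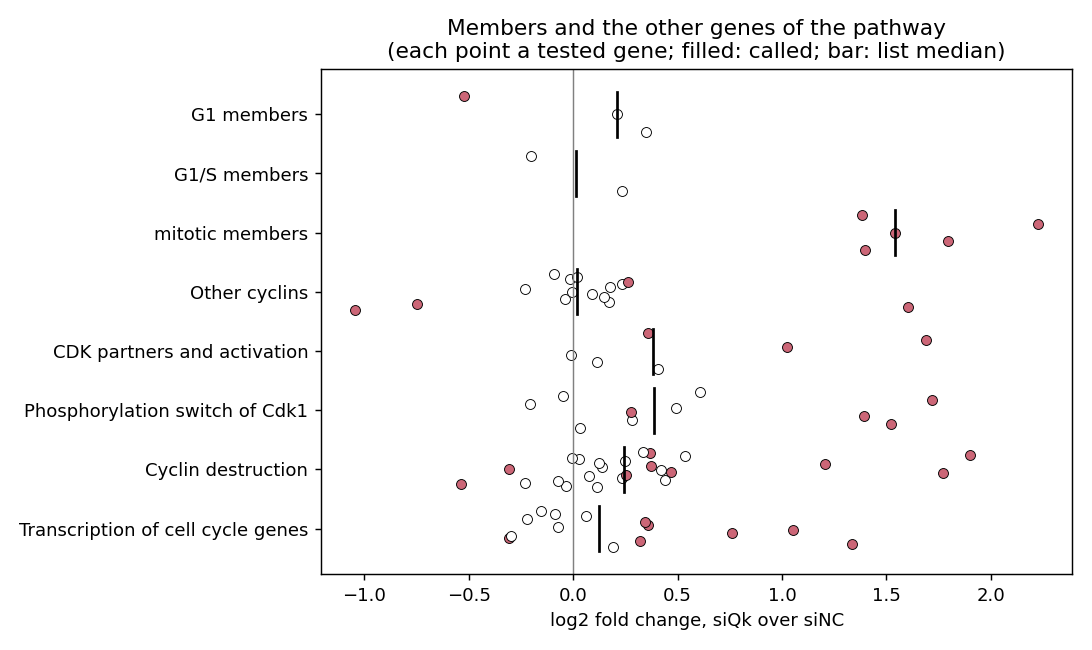
Log2 fold change of siQk over siNC for every tested member and for every tested gene of 5 pathway lists, with called genes filled and a bar at each list's median. The medians of the 5 lists lie between 0.018 and 0.39, below the 1.54 of the mitotic members, and each list holds at least 1 gene above 1.

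Some markers of cell identity also differed between the groups, against 13.8% of all tested genes called higher and 17.2% lower. Of the 7 OL lineage and precursor markers, 4 were called higher and none lower. Cspg4, the gene of the precursor proteoglycan NG2, had the largest change of these, 0.93 on the log2 scale. Sox10 (−0.019), Pdgfra (0.10) and Ptprz1 (0.13) were not called. Of 5 mature OL markers, 4 were called lower and none higher, and their sum ranged from 1698 to 3512 RPKM in siNC and from 562 to 1065 RPKM in siQk. Of 4 tested astrocyte markers, 3 were called lower, and the sum of the 5 listed ranged from 75.1 to 129 RPKM in siNC and from 20.3 to 22.7 RPKM in siQk, with Gja1 below 0.1 RPKM in every library. Neuronal markers summed to 100 to 170 RPKM in siNC and 74.9 to 114 RPKM in siQk, with 1 of 4 tested called higher (Snap25) and Stmn2 below 0.1 RPKM throughout. Most of that sum was Tubb3, at 97.6, 166 and 106 RPKM in siNC and 104, 68.4 and 103 RPKM in siQk. Snap25 and Syt1 were higher in every siQk library than in any siNC library, as were 41.9% of tested genes, and Syt1 was not called. Tubb3 and Rbfox3 each had a log2 fold change of −0.57 and were not called. Microglial markers summed to at most 0.174 RPKM and fibroblast and vascular markers to at most 0.297 RPKM in any library, with C1qa and Cldn5 at 0. For the directions with no call in edgeR, in these markers and in the CDK partner and phosphorylation lists, the count was also 0 at an unadjusted p under 0.05 in edgeR and by DESeq2 calls. In DESeq2 1 neuronal marker was lower at an unadjusted p under 0.05. The part of these shifts in the cyclin results was not tested.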

How the data were processed

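Poly(A) mRNA from 3 siNC and 3 siQk mOPC cultures had been sequenced by the authors and deposited as 1 table per library, holding per gene an estimated count of tags, the exon length and RPKM (genome build mm10, per the submitters' processing notes). Tag numbers, some of which are not whole, were rounded. edgeR 4.0.16 (TMM factors, quasi-likelihood test, group as the only term) was run on all 12505 genes with an average log2 CPM above 0, and checked on simulated data. A call needed p below 0.01 and adjusted p below 0.1. Levels are deposited RPKM, without the TMM factors, which were 0.899 to 0.987 in siNC and 1.04 to 1.07 in siQk. Differences in RPKM therefore lie further toward siQk than the edgeR log2 fold changes. Intervals come from the edgeR fit. The genes, pathway lists and markers were chosen with earlier results of these data known. In each pathway list every called gene could be named, with values for at most the 5 highest and 5 lowest. Ccna1, Cdk6 and Nfya were named after their values were seen. The 5 genes most like Cdk1 and the 5 most like Ccnd1 were also to be named, and 1 of the former is not reported here. Loci and 3′ untranslated regions came from GENCODE M21. Alternatives tried were other scalings, filters and cutoffs, DESeq2 1.42.0, a replicate block, leaving out each library, thinning to the smallest library and removing Rn45s, the last pair chosen after seeing the data.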

Additional observations from a re-analysis of the deposited data

How the results depend on the processing

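All 5 mitotic members were called higher under each of 16 alternatives, among them DESeq2, other filters and cutoffs and the loss of any library. Their log2 fold changes ranged from 1.94 to 2.45 for Cdc25c, 1.52 to 1.99 for Ccnb1, 1.31 to 1.75 for Ccnb2, 1.08 to 1.57 for Ccna2 and 1.14 to 1.59 for Cdk1. Ccnd3 was called lower under 15 of the 16, and Ccnd1, Ccnd2, Ccne1 and Ccne2 under none. Scaling by library size only moved the median of all tested genes from 0.010 to 0.16, raised the share called higher to 23.9% and lowered the share called lower to 10.9%, left 0 members called lower in edgeR (1, Ccnd3, at an unadjusted p under 0.05) and called 8 other cyclins.

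Leaving out each library gave 2478 to 3704 called genes (2478 without siQk replicate 1) and a median of −0.065 to 0.60 for the G1 members, −0.046 to 0.099 for the G1/S members and 1.31 to 1.75 for the mitotic members. It gave 1 to 3 called CDK partners (1 without siQk replicate 1 or 2) and 4 to 7 called transcription genes (4 without siQk replicate 1). The Ccnd2 to Ccnd1 ratio ranged from −0.65 to 0.095 and reversed without siQk replicate 2. Whether same-numbered libraries were paired is not given in the sources used here. Their deviations from the group means correlated at −0.053, −0.15 and −0.34, which does not decide this, since effects of single libraries enter the same values. With a replicate block 2796 genes and 4 transcription genes were called, and 5 members stayed higher and 1 lower. The cause of these shifts was not tested.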
